A study of Mus musculus with 24 samples.

Results

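Scavenger receptors are the surface and lysosomal proteins through which macrophages bind modified lipoproteins, sugars, microbial products and debris. Described here are 7 of their genes, Msr1, Marco, Cd36, Scarb1, Olr1, Mrc1 and Cd68, chosen by symbol. Each symbol matched 1 row of the 55487 genes in the deposited count table. The RNA came from tumor-associated macrophages, sorted as CD45+ CD11b+ F4/80+ cells out of MC38 tumors, a colon carcinoma model grown orthotopically in C57BL/6J mice. The groups were macrophages of APC-KO tumors, whose cancer cells lacked the Wnt pathway suppressor Apc, and of APC-WT tumors, whose cancer cells kept it. Each genotype had 2 tumors and each tumor 6 libraries, which makes 24 libraries in all. The labels do not say whether the tumors came from separate mice, how many mice were pooled or whether a line was 1 clone. The sorted cells belong to the host, in which Apc was not targeted, so these libraries hold no check of the knockout.

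These receptors fall into structural classes. Msr1 and Marco are trimers with a collagen-like stalk. Cd36 and Scarb1 cross the membrane at both ends of the protein and handle lipid. Olr1 and Mrc1 carry lectin-type domains, and Cd68 is a heavily glycosylated protein kept mainly in the late endosomes and lysosomes of macrophages. In macrophages they feed lipid and debris to the lysosome, and Mrc1 is widely used as a sign of alternative activation by interleukins.

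The libraries of the genotypes differed in depth and in composition. APC-KO libraries held 8895722 to 19328572 counts in tumor 1 and 13464061 to 17196820 in tumor 2, and APC-WT libraries 74972634 to 93568353 in tumor 1 and 28018638 to 46837543 in tumor 2. The share of counts at loci resembling satellite repeats was 37.9% and 38.5% in APC-KO tumors 1 and 2, against 1.32% and 7.08% in APC-WT tumors 1 and 2. Sensory receptor genes of the Olfr and Vmn families, which belong to olfactory and vomeronasal neurons, gave a measure of background per length of exon. Levels are given as scaled CPM, with the total of the 3938 expressed genes times its TMM factor as library size. TMM is edgeR's normalization between libraries, so levels depend on these factors and not on the plain total alone. An expressed gene had a mean of at least 10 CPM over the tumors and at least 10 times its expected background. All 12 macrophage markers looked up, such as Adgre1, Csf1r and C1qa, were expressed, with a summed level of 27200 to 29290 scaled CPM per APC-KO library and 25800 to 33000 per APC-WT library.

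Of the 7 receptor genes 4 passed the limit for expression, Msr1, Cd68, Mrc1 and Scarb1, and 3 did not, Olr1, Cd36 and Marco. Scarb1 lay just inside the limit at 10.8 times its background and Olr1 just outside it at 9.43 times, as means over the tumors. The limit was set on CPM of all counts, in which the APC-WT tumors weigh more. In APC-KO tumors 1 and 2 Scarb1 stood at only 4.22 and 4.52 times background and Mrc1 at 6.85 and 9.98 times. In APC-WT tumors 1 and 2 Scarb1 stood at 201.5 and 28.0 times and Mrc1 at 761 and 44.6 times. Both genes thus passed the limit through the APC-WT tumors. Olr1 read above its expected background in each tumor, at 2.64 and 2.30 times in APC-KO tumors 1 and 2 and at 157 and 36.7 times in APC-WT tumors 1 and 2. Per kb of exon, 96.45% and 94.88% of the sensory receptor genes lay below Olr1 in APC-KO tumors 1 and 2. In APC-KO it was thus within the upper spread of that background. Cd36 stood at 5.86 and Marco at 1.51 times background over the tumors. Below Cd36 lay 98.89% and 88.15% of the sensory receptor genes in APC-KO tumors 1 and 2. Tumor means of both APC-KO tumors lay below both APC-WT tumors for Msr1, Cd68 and Olr1 and above them for Scarb1 and Marco. Among expressed genes, to which Olr1 and Marco do not belong, 42.3% lay below and 40.9% above in this way. Over all 53705 genes scaled to expressed genes, edgeR's test called 59.2% higher in APC-KO and 2.75% lower.

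Promoters of 5 members were found in RefSeq (GRCm38.p6), each with 250 bases before and 50 after the start that RefSeq gives. The start given for Cd36 lies inside the span of the gene in the annotation used for lengths, not at its outer end. They are shown for Cd68 and Olr1, whose levels lay lower in both APC-KO tumors than in both APC-WT tumors, and for Mrc1 and Cd36, whose levels followed the single tumor. The windows are chr11:69666121-69666420 on the minus strand for Cd68, chr6:129507116-129507415 on the minus strand for Olr1, chr2:14229164-14229463 on the plus strand for Mrc1 and chr5:17835847-17836146 on the minus strand for Cd36. Capitals mark GAGGAA, a core of the kind bound by the macrophage factor PU.1, and TGANTCA, the core of AP-1, on either strand.
Cd68: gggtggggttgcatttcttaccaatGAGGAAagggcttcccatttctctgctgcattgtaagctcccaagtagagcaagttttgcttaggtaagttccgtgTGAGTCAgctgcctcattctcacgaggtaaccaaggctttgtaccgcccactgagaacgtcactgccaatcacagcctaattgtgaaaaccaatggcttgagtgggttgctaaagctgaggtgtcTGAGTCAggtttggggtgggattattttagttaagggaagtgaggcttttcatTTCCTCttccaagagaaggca
Olr1: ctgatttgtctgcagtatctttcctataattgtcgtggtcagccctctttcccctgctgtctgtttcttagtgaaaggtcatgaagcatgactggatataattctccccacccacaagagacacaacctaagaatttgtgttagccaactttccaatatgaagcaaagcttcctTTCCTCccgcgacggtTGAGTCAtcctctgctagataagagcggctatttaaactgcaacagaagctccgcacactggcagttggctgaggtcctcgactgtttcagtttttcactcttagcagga
Mrc1: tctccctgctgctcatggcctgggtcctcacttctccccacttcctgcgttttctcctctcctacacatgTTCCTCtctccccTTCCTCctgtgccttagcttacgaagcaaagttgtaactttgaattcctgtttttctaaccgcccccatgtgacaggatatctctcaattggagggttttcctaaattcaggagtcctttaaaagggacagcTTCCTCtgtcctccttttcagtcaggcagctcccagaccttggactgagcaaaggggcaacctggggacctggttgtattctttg
Cd36: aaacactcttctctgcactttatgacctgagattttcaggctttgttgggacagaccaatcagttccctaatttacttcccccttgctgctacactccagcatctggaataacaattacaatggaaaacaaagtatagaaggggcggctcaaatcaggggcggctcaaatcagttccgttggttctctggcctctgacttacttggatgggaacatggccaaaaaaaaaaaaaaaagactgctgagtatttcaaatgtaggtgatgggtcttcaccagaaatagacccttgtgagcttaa
GAGGAA occurred 2 times in the Cd68 window, 1 time in that of Olr1, 3 times in that of Mrc1 and 1 time in that of Marco. TGANTCA occurred 2 times in the Cd68 window and 1 time in the Olr1 window. The Cd36 window held neither run of letters. Among all 32841 promoters of the same length, 28.28% held GAGGAA and 7.81% held TGANTCA, and no match of either motif overlapped the other in these members. These are descriptions of letters and not binding sites.

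Cd68 and Msr1 were the most abundant receptor transcripts in all 4 tumors, and Marco was the least abundant. Per kb of exon, Cd68 had a level of 518 ± 8.05 and 499 ± 17.8 scaled CPM in the APC-KO tumors 1 and 2 and of 607 ± 13.9 and 632 ± 13.6 in APC-WT tumors 1 and 2 (SD, n = 6 libraries each). Msr1 came next on this scale, at 69.4 ± 2.48 and 61.5 ± 3.61 per kb in APC-KO and at 118 ± 3.93 and 132 ± 5.28 in APC-WT. Mrc1 followed at 26.9 ± 4.85 and 39.4 ± 2.01 per kb in APC-KO and at 58.5 ± 2.45 and 24.7 ± 1.10 in APC-WT. The first 3 places were thus the same in every tumor, with a gap to the next gene beyond the SD of the libraries.

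Further down the order changed with the tumor. Scarb1 had 16.6 ± 0.573 and 17.9 ± 1.69 scaled CPM per kb of exon in APC-KO tumors 1 and 2 and 15.5 ± 0.905 and 15.5 ± 0.643 in APC-WT tumors 1 and 2. Olr1 had 10.4 ± 1.24 and 9.07 ± 0.749 per kb in APC-KO, and 12.1 ± 0.992 and 20.3 ± 0.742 in APC-WT. Cd36 had 13.2 ± 1.28 and 7.08 ± 1.11 per kb in APC-KO, and 4.13 ± 0.219 and 12.2 ± 1.13 in APC-WT. Olr1 therefore ranked above Scarb1 in APC-WT tumor 2 only. Cd36 ranked above Olr1 in APC-KO tumor 1 only, and the libraries of Olr1 and Cd36 overlapped in both APC-KO tumors. Marco had 5.36 ± 0.753 and 5.64 ± 1.10 per kb in APC-KO and 0.779 ± 0.113 and 0.630 ± 0.174 in APC-WT, the last place throughout. Per kb of the longest transcript in place of exon, Scarb1 ranked above Mrc1 in both APC-KO tumors and in APC-WT tumor 2, as the merged exons of Scarb1 span 8500 bases and its longest transcript 3093.

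**Figure D1:**
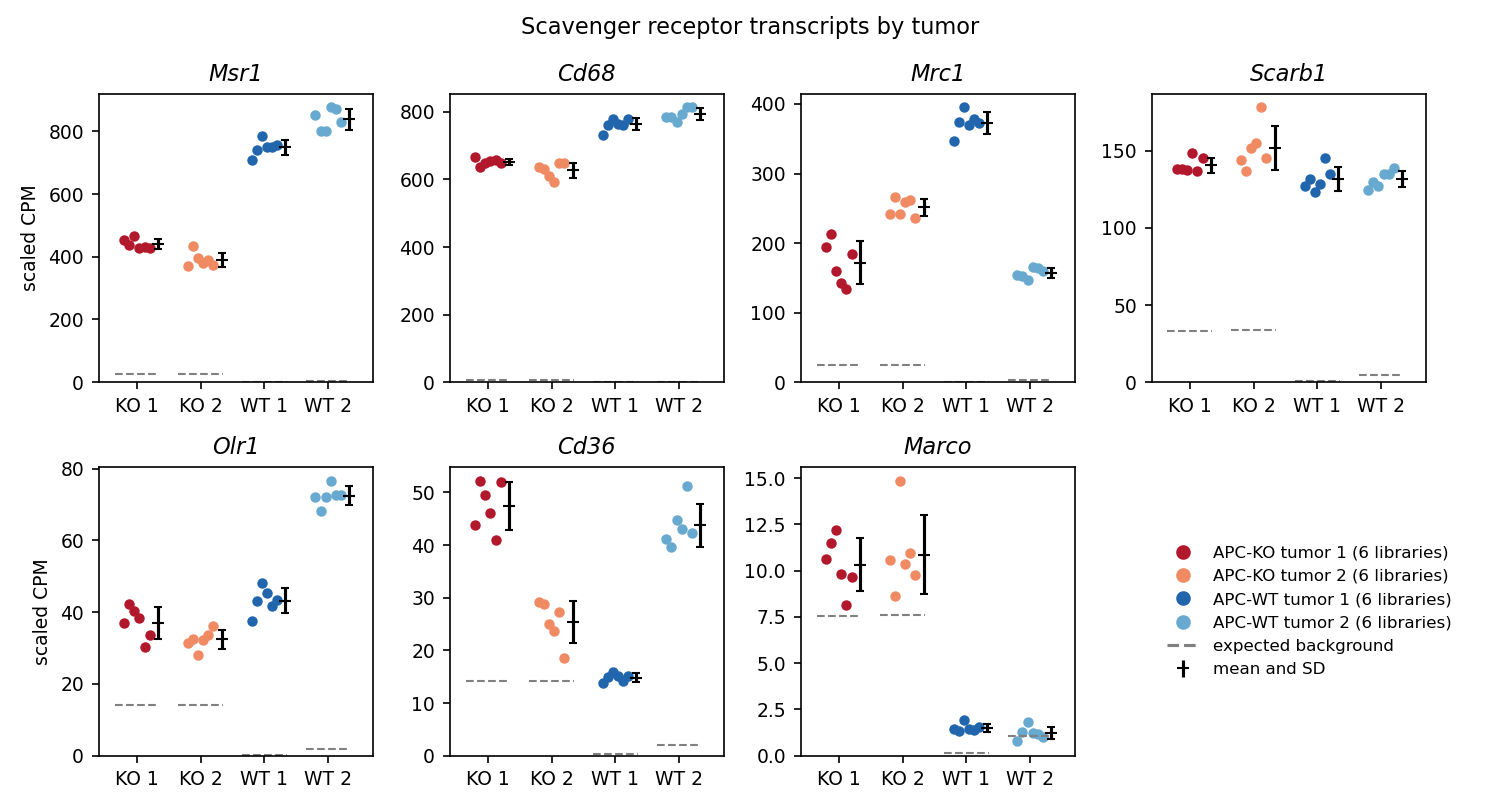
Scaled CPM (vertical axis, linear, from 0) of the 7 receptor genes in the 6 libraries of APC-KO tumors 1 and 2 and APC-WT tumors 1 and 2. Points are libraries, bars the mean and SD, and dashed lines the expected background. Msr1, Cd68 and Olr1 lie lower in both APC-KO tumors, Mrc1 and Cd36 differ within a genotype, and Marco lies close to the dashed line in APC-KO.

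Msr1 encodes scavenger receptor A, which takes up modified low density lipoprotein and binds bacteria (ENSMUSG00000025044, chromosome 8, 39581685 to 39642673, minus strand, GRCm38). It read 427 to 465 scaled CPM in the libraries of APC-KO tumor 1, with a median of 434, and 371 to 433 in those of APC-KO tumor 2, with a median of 384. It read 709 to 786 in APC-WT tumor 1, with a median of 750, and 800 to 877 in APC-WT tumor 2, with a median of 842. Every APC-KO library was below every APC-WT library, and the expected background of 24.9, 25.1, 0.488 and 3.51 in these tumors was small beside the levels. Tumor means lay in this order for 42.3% of expressed genes, and the share for single libraries was not computed. In bulk RNA fewer macrophages that express a gene and less RNA per macrophage cannot be told apart.

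The size of the Msr1 difference depended on how transcript length was handled. Scaled to the expressed genes alone, Msr1 was lower by the quasi-likelihood test of edgeR over summed tumors, with a log2 change of -0.92 ± 0.15 (SE, n = 2 tumors per genotype, adjusted p = 0.00674). On that scale 30.7% of the expressed genes were called lower and 32.7% higher. With an offset for the length of the longest transcript, the design chosen for the genotype, its change was -0.41 ± 0.16 and did not pass (adjusted p = 0.0832). Msr1 has annotated coding transcripts of 1424 and 3636 bases, the shorter being the principal one. With the principal isoform in the offset its change was -1.41 ± 0.14 (adjusted p = 0.00490), where 20.7% of genes were called lower. The change was negative in all 23 settings other than TMM over all genes and passed the threshold in 7 of them. Those were the fits without a length offset, with the principal isoform and with a limit of 1 CPM and 3 times background. Most of the others repeat the offset for the longest transcript, so the settings are not independent. Which transcript these macrophages used cannot be told from counts per gene.

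Marco, the other collagenous receptor, is best known from macrophages of the lung and of the marginal zone of the spleen (ENSMUSG00000026390, chromosome 1, 120474538 to 120505024, minus strand, GRCm38). Its libraries read 8.13 to 12.2 scaled CPM in APC-KO tumor 1, with a median of 10.2, and 8.64 to 14.9 in APC-KO tumor 2, with a median of 10.5. They read 1.31 to 1.91 in APC-WT tumor 1, with a median of 1.43, and 0.792 to 1.79 in APC-WT tumor 2, with a median of 1.20. The APC-KO libraries were all above the APC-WT libraries, but so was the expected background, at 7.56 and 7.61 in APC-KO and 0.148 and 1.07 in APC-WT. The level of Marco was 1.37, 1.43 and 1.14 times background in APC-KO tumors 1 and 2 and APC-WT tumor 2, and 10.1 times background in APC-WT tumor 1. Per kb of exon, 74.8% and 79.1% of the 1974 olfactory and vomeronasal receptor genes lay below Marco in APC-KO tumors 1 and 2, against 99.95% and 65.9% in APC-WT tumors 1 and 2. Marco stood clear of that background in APC-WT tumor 1, on 552 counts over the 6 libraries.

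Cd36, a class B receptor for long-chain fatty acids and oxidized lipoprotein, had no common direction between genotypes (ENSMUSG00000002944, chromosome 5, 17781690 to 17888801, minus strand, GRCm38). Its libraries read 40.9 to 52.2 scaled CPM in APC-KO tumor 1, with a median of 47.8, and 18.5 to 29.2 in APC-KO tumor 2, with a median of 26.1. They read 13.7 to 15.9 in APC-WT tumor 1, with a median of 15.1, and 39.7 to 51.2 in APC-WT tumor 2, with a median of 42.7. APC-KO tumor 1 and APC-WT tumor 2 overlapped at the top, and APC-WT tumor 1 lay below all others. Expected background was 14.1 and 14.2 in APC-KO tumors 1 and 2 and 0.276 and 1.99 in APC-WT tumors 1 and 2. Above background Cd36 stood at 33.3 and 11.2 scaled CPM in APC-KO and at 14.6 and 41.7 in APC-WT.

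Between libraries of single tumors, fitted over all 45451 genes and scaled to expressed genes, Cd36 was lower in APC-KO tumor 2 than in APC-KO tumor 1 (log2 change -0.90 ± 0.10, SE over 6 libraries each, adjusted p = 2.7e-07 by edgeR). It was higher in APC-WT tumor 2 than in APC-WT tumor 1 (1.56 ± 0.09, adjusted p = 4.7e-14). Of all genes 1.29% were called lower in the first of these comparisons and 78.8% higher in the second, where background differed. With expected background subtracted, the genotype change of Cd36 over all genes was -0.15 ± 0.64 (adjusted p = 0.841).

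Scarb1 encodes the receptor for high density lipoprotein, which takes up cholesteryl ester and also carries cholesterol out of macrophages (ENSMUSG00000037936, chromosome 5, 125277087 to 125341094, minus strand, GRCm38). Its libraries read 137 to 148 scaled CPM in APC-KO tumor 1, with a median of 138, and 137 to 178 in APC-KO tumor 2, with a median of 149. They read 123 to 145 in APC-WT tumor 1, with a median of 130.1, and 125 to 139 in APC-WT tumor 2, with a median of 132. The libraries of the genotypes overlapped, while both APC-KO means, 141 ± 4.87 and 152 ± 14.3, were above both APC-WT means, 132 ± 7.69 and 132 ± 5.47 (SD, n = 6). Without expected background the order turned round, with 107 and 118 scaled CPM in APC-KO against 131 and 127 in APC-WT.

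Scarb1 was the member called higher with the offset for transcript length, at a log2 change of 0.58 ± 0.10 (SE, n = 2 tumors per genotype, adjusted p = 0.00977 by edgeR). Without the offset the change was 0.17 ± 0.10 and did not pass (adjusted p = 0.181). With background subtracted and no offset it was 0.02 ± 0.11 (adjusted p = 0.865). That fit computed TMM anew on the subtracted counts, unlike the levels without background given above. Its longest annotated transcript, 3093 bases, is one with a retained intron, and the principal isoform of 2521 bases gave 0.50 ± 0.10 (adjusted p = 0.0167). Leaving out APC-KO tumor 1 or APC-KO tumor 2 ended the call, with changes of 0.62 and 0.53. These tests with a lone APC-KO tumor called fewer of all expressed genes as well. A gene model of uncertain coding status, Gm42633, overlaps Scarb1 on the same strand, and how the counting split shared reads is not given.

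Olr1, the lectin-like receptor LOX-1 for oxidized low density lipoprotein, was the member outside the limit that lay lower in APC-KO (ENSMUSG00000030162, chromosome 6, 129485244 to 129507165, minus strand, GRCm38). Its libraries read 30.3 to 42.4 scaled CPM in APC-KO tumor 1, with a median of 37.7, and 28.0 to 36.2 in APC-KO tumor 2, with a median of 32.5. They read 37.6 to 48.1 in APC-WT tumor 1, with a median of 43.2, and 68.3 to 76.6 in APC-WT tumor 2, with a median of 72.4. APC-WT tumor 2 stood above all other libraries, and APC-KO tumor 1 overlapped APC-WT tumor 1. Above expected background Olr1 had 22.9 and 18.3 scaled CPM in APC-KO, against 42.9 and 70.4 in APC-WT.

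In the fit of all 53705 genes scaled to expressed genes, Olr1 was lower in APC-KO (log2 change -0.73 ± 0.27, adjusted p = 0.0346 by edgeR), where 2.75% of genes were called lower and 59.2% higher. With background subtracted its change was -1.28 ± 0.28 (adjusted p = 0.00990), where 5.12% of 46207 genes were called lower. With a limit of 1 CPM and 3 times background and the length offset it did not pass (-0.96 ± 0.31, adjusted p = 0.0529). On the first of these scales the median of all genes lay at 3.57. In the same fit Marco was called higher (2.93 ± 1.00, adjusted p = 0.0272), and with background subtracted it did not pass (2.10 ± 1.08, adjusted p = 0.144).

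Mrc1, the mannose receptor CD206, takes up glycoproteins and collagen fragments (ENSMUSG00000026712, chromosome 2, 14229392 to 14332057, plus strand, GRCm38). Its libraries read 134 to 213 scaled CPM in APC-KO tumor 1, with a median of 173, and 236 to 266 in APC-KO tumor 2, with a median of 251. They read 347 to 395 in APC-WT tumor 1, with a median of 373, and 147 to 166 in APC-WT tumor 2, with a median of 157. The highest and the lowest tumor were thus both APC-WT, with APC-KO tumor 2 between them and APC-KO tumor 1 overlapping APC-WT tumor 2. Within APC-KO tumor 1 Mrc1 varied most among the expressed members, at 18.0% of the mean where counting error alone gives 3.78%. In APC-KO tumor 2 it varied by 5.08% and in APC-WT tumor 1 by 4.18%, less than Scarb1 at 9.43% and 5.84%. In APC-WT tumor 2 it varied by 4.45%, beside 4.15% for Scarb1. The miRNA gene Mir511 lies inside Mrc1 on the same strand.

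Between genotypes the change of Mrc1 was 0.28 ± 0.43 with the length offset (adjusted p = 0.606) and -0.32 ± 0.46 without it (adjusted p = 0.570). Without APC-WT tumor 1 it was called higher, at 0.97 ± 0.27 (adjusted p = 0.0401), with 26.5% of genes called higher, in a test of 2 tumors against 1 that assumes the lone tumor varies like the others. Between single tumors Mrc1 was higher in APC-KO tumor 2 than in APC-KO tumor 1 (0.55 ± 0.08, adjusted p = 4.5e-06) and lower in APC-WT tumor 2 than in APC-WT tumor 1 (-1.25 ± 0.08, adjusted p = 1.6e-12). Of the expressed genes 15.2% were called higher in the first of these comparisons and 27.5% lower in the second. These p-values measure the spread between the libraries of a tumor and not between tumors.

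Cd68, also called macrosialin, is a lysosomal membrane protein that binds oxidized lipoprotein and is used as a marker of macrophages (ENSMUSG00000018774, chromosome 11, 69664213 to 69666153, minus strand, GRCm38). Its libraries read 636 to 666 scaled CPM in APC-KO tumor 1, with a median of 651, and 592 to 648 in APC-KO tumor 2, with a median of 634. They read 731 to 779 in APC-WT tumor 1, with a median of 763, and 771 to 814 in APC-WT tumor 2, with a median of 789.8. Every APC-KO library was below every APC-WT library, by less than for Msr1, in an order that tumor means showed for 42.3% of expressed genes. Expected background was at most 4.97 scaled CPM as a tumor mean.

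Cd68 was the expressed member called lower with the length offset, at a log2 change of -1.03 ± 0.14 (SE, n = 2 tumors per genotype, adjusted p = 0.00559 by edgeR). Without the offset the change was -0.26 ± 0.14 and did not pass (adjusted p = 0.156). With background subtracted and no offset it was -0.08 ± 0.14 (adjusted p = 0.637), in a fit that computed TMM anew on the subtracted counts. Under the first scaling, levels minus background were 647 and 622 scaled CPM in APC-KO against 763 and 793 in APC-WT. Before subtraction these levels were 652 and 627 in APC-KO against 763 and 794 in APC-WT. What made the change smaller in that fit was not tested. The longest Cd68 transcript has 1230 bases. The 577 expressed genes of that length or less had a median change of 1.32 without the offset, so Cd68 was low beside genes of its length. Leaving out APC-KO tumor 2 ended the call, with a change of -1.01, and leaving out each other tumor kept it. Tests with a lone APC-KO tumor called fewer of all expressed genes as well.

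Across the expressed members, 1 of 4 was called higher and 1 of 4 lower in the comparison of genotypes with the length offset. Among all 3938 expressed genes the shares were 28.4% higher and 21.6% lower, with a median change of 0.04. The rank correlation of the change without an offset with transcript length was -0.567 across these genes, which are not independent replicates. The length part of the offset came to -0.51 for Msr1, -0.58 for Mrc1, -0.40 for Scarb1 and 0.77 for Cd68 (log2, APC-KO minus APC-WT), which makes the difference of Msr1 smaller and that of Cd68 larger. Fitted over all 53705 genes with TMM, edgeR's test called 0 genes (0%), while 17844 had an unadjusted p under 0.05. On that scale the median expressed gene lay at -4.01, with Msr1 at -4.89, Mrc1 at -4.65, Olr1 at -4.53 and Cd68 at -4.27 below it and Scarb1 at -3.84, Cd36 at -3.21 and Marco at -1.16 above it.

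**Figure D2:**
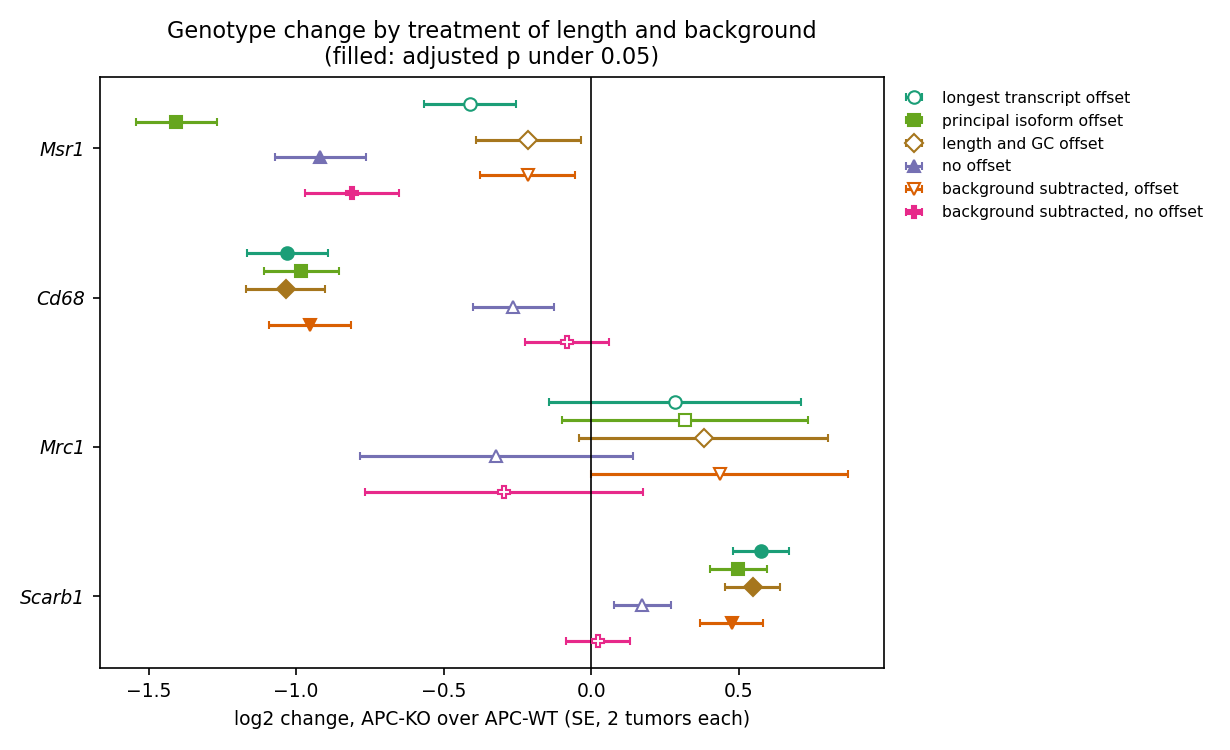
Log2 change of the 4 expressed receptor genes, APC-KO over APC-WT (horizontal axis), under 6 treatments of transcript length and background. Points are estimates from 2 tumors per genotype, bars the SE, and filled points have an adjusted p under 0.05. Msr1 lies left of 0 throughout, from -1.41 to -0.21, while Cd68 is at -0.08 with background subtracted and no offset and near -1 with an offset.

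**Figure D3:**
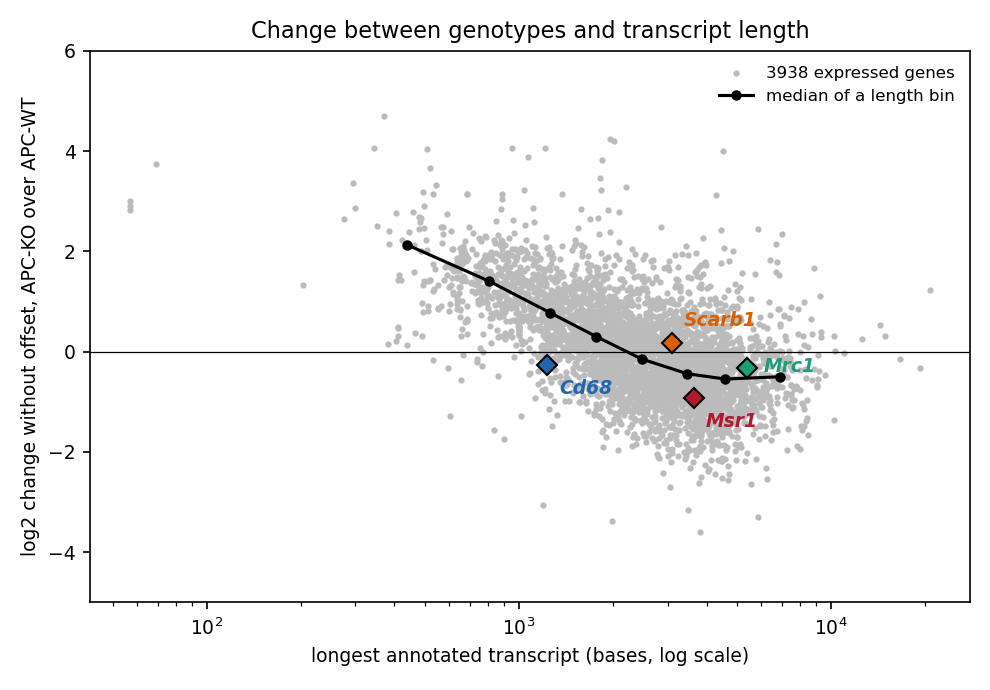
Log2 change without a length offset (vertical axis, APC-KO over APC-WT) against the longest annotated transcript in bases (horizontal axis, log scale) for the 3938 expressed genes, 1 of which lies outside the axis. The black line joins medians of length bins, and diamonds mark the expressed receptor genes. Cd68 and Msr1 lie below the line at their length and Scarb1 above it.

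Pairs of single tumors showed which differences had the same direction throughout, without the length offset. Msr1 was lower in all 4 pairings of tumors across the genotypes, with log2 changes of -0.77, -0.93, -0.94 and -1.10 in the pairs of APC-KO tumor 1 with APC-WT tumors 1 and 2 and of APC-KO tumor 2 with the same. Cd68 was also lower in all 4, at -0.23, -0.28, -0.28 and -0.34 in that order. Of the expressed genes 34.3% were called lower in all 4 pairs and 34.9% higher, and 86.2%, 84.5%, 85.3% and 83.6% were called in either direction in the pairs taken singly. Mrc1 stood at -1.12, 0.12, -0.57 and 0.68, with the second of these not past the threshold (adjusted p = 0.147). Scarb1 stood at 0.09, 0.10, 0.21 and 0.21, of which the pairs with APC-KO tumor 2 passed (adjusted p = 0.000962 and 0.000974). With background subtracted Cd68 in the first pair came to -0.03 and did not pass (adjusted p = 0.205). Every pair shares a tumor with others, so the pairs are not separate tests. Their p-values measure the spread between the libraries of a tumor, not between tumors of a genotype.

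**Figure D4:**
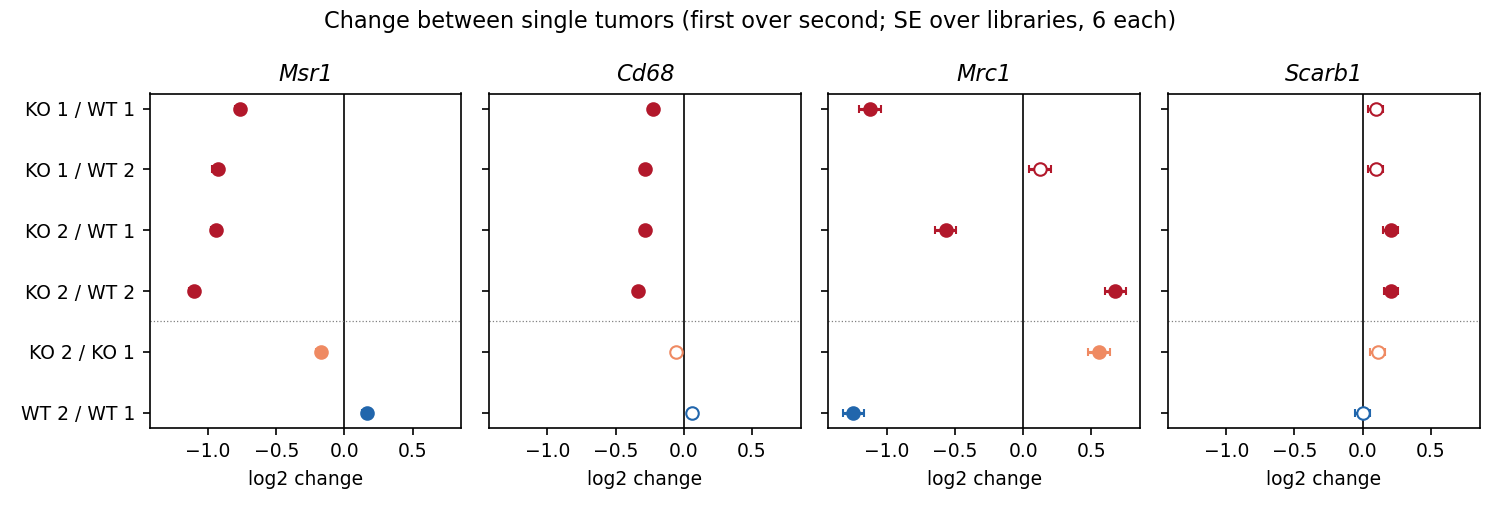
Log2 change between single tumors without the length offset, the first named over the second (horizontal axis), for the 4 expressed receptor genes. Bars are the SE over 6 libraries per tumor, and filled points have an adjusted p under 0.05. In the 4 pairs of genotypes Msr1 and Cd68 lie left of 0, and Mrc1 ranges from -1.12 to 0.68. In APC-WT tumor 2 over APC-WT tumor 1 Mrc1 is at -1.25.

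Within a genotype 2 of the 4 expressed members differed between APC-KO tumors and 2 between APC-WT tumors, namely Msr1 and Mrc1 in both. The share of expressed genes called in either direction was 33.3% between APC-KO tumors and 46.9% between APC-WT tumors. Msr1 changed by -0.17 ± 0.04 in APC-KO tumor 2 against APC-KO tumor 1 and by 0.16 ± 0.04 in APC-WT tumor 2 against APC-WT tumor 1 (adjusted p = 0.00061 and 0.00064). With the length offset these came to -0.18 and 0.17, beside -0.26 in APC-KO tumor 1 against APC-WT tumor 1, the nearest pair of genotypes. Cd68 differed by -0.05 and 0.06 in the same comparisons and did not pass (adjusted p = 0.101 and 0.0678). With background subtracted Cd68 passed between APC-WT tumors (0.13 ± 0.02, adjusted p = 8.0e-05), as it did without replicate 3 (0.07 ± 0.03, adjusted p = 0.0478). Scarb1 differed by 0.11 and by less than 0.01 and did not pass either (adjusted p = 0.121 and 0.991).

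**Figure D5:**
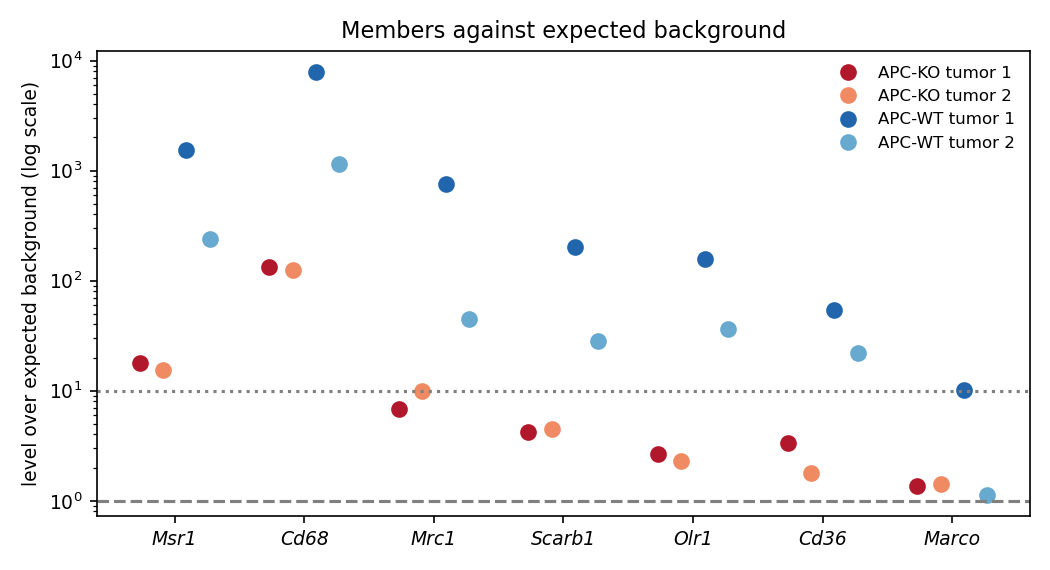
Level of each receptor gene over its expected background (vertical axis, log scale) in the 4 tumors. Points are tumor means, the dashed line is the background itself and the dotted line is 10 times background. Cd68 and Msr1 lie above the dotted line in every tumor, and Marco lies at it in APC-WT tumor 1 and near the dashed line in the other tumors.

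Other genes around these receptors were read from gene lists, each as its expressed genes under the length offset. The counts of each list stand beside 28.4% higher and 21.6% lower among all expressed genes, and nothing is read as particular to a list. Of 19 further scavenger and pattern receptors 6 were expressed, 0 rose and 1 fell, with a median of 0.05 beside 0.04 for all expressed genes. The one that fell was Clec7a, the receptor for fungal glucan, at -0.67 ± 0.18 (adjusted p = 0.0343), and it read 215 ± 10.9 and 177 ± 22.8 scaled CPM in APC-KO against 309 ± 17.9 and 380 ± 18.6 in APC-WT. Cxcl16, a membrane chemokine that binds oxidized lipoprotein, stood at -0.46 (adjusted p = 0.0620). Stab1, a scavenger receptor of alternatively activated macrophages, stood at 0.46 (0.153) and Scarb2, a lysosomal relative of Cd36, at 0.40 (0.144).

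Of 21 genes of lipid uptake, storage and efflux 14 were expressed, 4 rose and 5 fell, with a median of -0.06. Fabp5, a carrier of fatty acids in the cytosol, rose by 1.87 ± 0.30 (adjusted p = 0.00905). Its level was 112 ± 9.61 and 76.0 ± 9.64 scaled CPM in APC-KO against 42.5 ± 4.11 and 28.3 ± 2.53 in APC-WT. Npc2, which hands cholesterol out of the lysosome, rose by 0.95 ± 0.16 and Nceh1, a hydrolase of stored cholesteryl ester, by 0.92 ± 0.13 (adjusted p = 0.00972 and 0.00696). Lipa, the lysosomal acid lipase, fell by 0.59 ± 0.12 (adjusted p = 0.0156). Without the offset Nceh1 did not pass (0.33, adjusted p = 0.103).

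Among genes of alternative activation, 6 of 16 were expressed, 0 rose and 3 fell, with a median of -0.68. Stat6, the transcription factor behind interleukin 4 signals, fell by 1.39 ± 0.12 and Il4ra, the receptor chain, by 0.82 ± 0.17 (adjusted p = 0.00280 and 0.0170). F13a1, a clotting factor subunit made by macrophages, fell by 0.54 ± 0.15 (adjusted p = 0.0379), and Il10 at -1.19 ± 0.56 did not pass (0.139). Stat6 read 124 ± 21.5 and 122 ± 11.7 scaled CPM in APC-KO against 486 ± 18.8 and 454 ± 18.8 in APC-WT. Mrc1, which the same state is known to raise, did not pass in either direction.

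Of 10 lysosomal membrane genes, the company of Cd68, 8 were expressed, 2 rose and 3 fell, with a median of -0.61. Lamp2 fell by 1.18 ± 0.14 (adjusted p = 0.00466), while the tetraspanin gene Cd63 rose by 1.28 ± 0.29 (0.0209) and the calcium channel gene Mcoln1 by 0.38 ± 0.10 (0.0316). Lamp1 fell by 0.66 ± 0.15 (0.0227), but its libraries were uneven, at 510.1 ± 222 and 573 ± 157 scaled CPM in APC-KO and 889 ± 576 and 943 ± 601 in APC-WT. Without the offset Mcoln1 stood at 0.02 (adjusted p = 0.839).

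Signalling partners of the receptors had 10 of 15 genes expressed, 0 higher and 6 lower, with a median of -0.78. Tlr2, a receptor for bacterial lipopeptide with which Cd36 cooperates, fell by 1.69 ± 0.23 (adjusted p = 0.00589). It read 549.9 ± 30.2 and 534 ± 22.7 scaled CPM in APC-KO against 2738 ± 66.4 and 1921 ± 84.01 in APC-WT. The tetraspanin gene Cd81, the integrin gene Itgb1 and the exchange factor gene Vav1 fell by 1.27 ± 0.17, 1.14 ± 0.16 and 0.84 ± 0.13 (adjusted p = 0.00593, 0.00596 and 0.00852). Of 13 transcription factors known at receptor genes 9 were expressed, 0 rose and 2 fell, with a median of -0.32. They were Nfe2l2, the regulator of antioxidant genes, at -1.14 ± 0.15, and Fos, a subunit of AP-1, at -0.89 ± 0.19 (adjusted p = 0.00525 and 0.0175). Spi1, which encodes PU.1, read 623 ± 66.8 and 562 ± 26.0 scaled CPM in APC-KO and 736 ± 17.3 and 785 ± 21.2 in APC-WT, and at -0.37 ± 0.15 did not pass (adjusted p = 0.0969). Tfe3, a regulator of lysosomal genes, stood at -0.34 (0.122).

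Markers of macrophages and of other cells were set beside these counts. Of the 12 macrophage markers 0 rose and 7 fell, with a median of -0.79, and without the offset 1 rose and 4 fell, with a median of 0.07. Of fibroblast markers 3 of 9 were expressed (Col1a1, Col3a1 and Dcn), with a summed level of 347 to 615 scaled CPM per APC-KO library and 894 to 1758 per APC-WT library. Expected background of that sum was 224 to 245 in APC-KO and 4.42 to 35.6 in APC-WT. In both APC-KO tumors 3 of the 9 were at or below background. Of epithelial markers 4 of 8 were expressed, with 263 to 386 in APC-KO and 188 to 676 in APC-WT. There 72.7 to 79.4 was expected from background in APC-KO and 1.43 to 11.5 in APC-WT. Of neutrophil markers 4 of 9 were expressed, with 242 to 558 in APC-KO and 306 to 635 in APC-WT. For these 51.65 to 56.4 was expected in APC-KO and 1.02 to 8.19 in APC-WT.

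For the remaining cell types expected background differed between the genotypes as well, and so did the sums. Endothelial markers, with 1 of 10 expressed, summed to 368 to 491 scaled CPM in APC-KO, where 215 to 235 was expected from background, and to 146 to 240 in APC-WT, where 4.24 to 34.1 was expected. Platelet markers, with 2 of 6 expressed, summed to 343 to 594 in APC-KO, where 45.8 to 50.1 was expected, and 92.0 to 229 in APC-WT, where 0.904 to 7.27 was expected. Of B cell markers 1 of 6 was expressed, with a sum of 140.2 to 173 in APC-KO, where 109 to 119 was expected, and 21.6 to 41.7 in APC-WT, where 2.15 to 17.3 was expected. Of dendritic cell markers 0 of 8 were expressed, with 316 to 371 in APC-KO, where 154 to 168 was expected, and 32.8 to 89.4 in APC-WT, where 3.04 to 24.5 was expected. T and NK cell markers (0 of 9 expressed) summed to 105 to 234 in APC-KO, where 78.4 to 85.6 was expected, and 13.6 to 37.9 in APC-WT, where 1.55 to 12.4 was expected. Adipocyte markers (0 of 5) summed to 66.2 to 112 in APC-KO, where 45.1 to 49.2 was expected, and 1.95 to 12.04 in APC-WT, where 0.888 to 7.15 was expected. No marker was at 0 counts in any tumor. The part of other cells in the receptor levels was not tested.

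Some genes had nearly the same profile over the 24 libraries as a receptor, measured by the root mean square difference of log2 scaled CPM about each gene's mean. Nearest to Msr1 were Cd74, the invariant chain of MHC class II, at 0.0748 and Ppt1, a lysosomal thioesterase, at 0.0804. Nearest to Cd68 were Ube2d3 at 0.0832 and Irf2 at 0.0833, and nearest to Scarb1 were Elovl1 at 0.0714 and Lat2 at 0.0789. Mrc1 had no gene as near, with Parp14 at 0.195 and Rnase4 at 0.214. Levels of Parp14 were 175 and 198 scaled CPM in APC-KO and 337 and 128 in APC-WT, with the highest and the lowest tumor again APC-WT. Cd74 read 13080 and 10950 scaled CPM in APC-KO and 21840 and 26040 in APC-WT.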

How the data were processed

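The deposited table holds raw counts per gene for 24 libraries, which the authors made with bcl2fastq 2.20.0, HISAT2 and StringTie on the build mm9, per the submitters' processing notes. Roles, settings and strand are not given in the sources used here. Per the labels' protocols, total RNA of sorted cells went through an ultra low input Nextera XT protocol, with 6 replicates per tumor. Symbols, positions and lengths came from GENCODE M21 (GRCm38) for 55227 of 55487 gene IDs, so coordinates are not those of the notes' build. The receptor genes, gene lists, offset and gene filter were chosen with earlier results of these data known.

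Counts were summed per tumor over its 6 libraries, and APC-KO was tested against APC-WT on 2 sums each with edgeR 4.0.16 (R 4.3.3) by its quasi-likelihood test with TMM, a loess offset (span 0.5) on log2 transcript length and Benjamini-Hochberg adjustment at 0.05 over 3938 expressed genes. SE is the log2 change divided by the square root of F. Single tumors were compared in a fit of 24 libraries with a mean per tumor and no length offset. Fits with background subtracted computed TMM anew on the subtracted counts of the expressed genes, while levels minus background kept the first scaling. Adjusted p-values are edgeR's unless another tool is named. Background came from 1974 olfactory and vomeronasal receptor genes per kb of exon; 12 satellite-like loci (at least 0.4 of 15-mers shared) were left out of the expressed genes. All 7 receptor genes were named, up to 4 genes per list with the smallest p, and 2 genes per expressed receptor with the nearest profile. The likeness used log2 of scaled CPM plus 2. No libraries of a tumor agreed within sampling noise (chi-square per degree of freedom 6.45 to 473), so each was kept. Scripts were tested on simulated counts. Alternatives used DESeq2 1.42.0 and limma 3.58.1, among other settings.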

Additional observations from a re-analysis of the deposited data

Results flagged for a closer look

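Within a tumor, 28 groups of 6 libraries (7 genes in 4 tumors) were examined for a library that stood apart, which chance gives in about 1 in 20 groups. In APC-KO tumor 2, Marco read 14.86 scaled CPM in replicate 3 and 8.64 to 10.94 in the others, at a level near its expected background of 7.61. In APC-WT tumor 1, Cd68 read 731.2 scaled CPM in replicate 1 and 762.7 to 779.0 in the others, which is still above every APC-KO library.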

How the results depend on the processing

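The 4 tumors, of which 2 carry each genotype, and the APC-KO depth limit these comparisons. In the 23 settings other than TMM over all genes, the main one included, Msr1 was always negative (-1.41 to -0.21, 7 past the threshold). Cd68 was too (-2.05 to -0.08, 18 past it). The lower expressed members were 2 rather than 1 with the principal isoform, with DESeq2 and no offset, or with a limit of 1 CPM and 3 times background, and 0 with TMM over all genes. Where 1 was lower, the gene was not always the same. It was Cd68 in the main fit, and Msr1 without the offset or with background subtracted and no offset. The higher members were 0 rather than 1 without an offset, with DESeq2 and no offset, with that limit, with TMM over all genes, with all genes scaled to the expressed ones, or with background subtracted and no offset. Without 1 tumor the lower count ran from 0 to 1 and the higher from 0 to 2. Over all 7 members the lower calls were 0 with TMM, 2 scaled to expressed genes and 2 with background subtracted, and the higher calls 0, 1 and 0. Of the 4 expressed members 2 were lower in all 4 pairs, and 1 with background subtracted (expressed or all genes). Of these, 0 were higher in all 4, and 1 with the length offset; without 1 replicate this ran from 0 to 1, reached without replicate 5. Olr1, outside that limit, was also lower in all 4 pairs fitted over all genes, with and without background subtracted. Marco was higher in all 4 only without the subtraction. In the single pairs without it, 91.7% to 92.5% of 45451 genes were called higher and 4.7% to 4.78% lower. With it, 65.3% to 74.6% of 44471 genes were called higher and 7.11% to 7.67% lower. Tumor means of both APC-KO tumors lay below both APC-WT tumors for 3 members (5 by CPM of all counts, 4 with background subtracted) and above for 2 (1 by CPM of all counts or with background subtracted). In scaled CPM 42.3% of expressed genes lay below and 40.9% above, and shares on the other scales were not computed. Expressed genes held 33.1% and 31.7% of all counts in APC-KO tumors 1 and 2. In APC-WT tumors 1 and 2 they held 81.6% and 73.6%, so CPM of all counts sets them lower in APC-KO. Without the offset the list of further scavenger receptors had 2 lower genes rather than 1, the lipid list 2 higher rather than 4, and the transcription factors 6 lower rather than 2.

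Signs turned for these values, and the cause was not tested. Mrc1 between genotypes came to -0.32 without the offset (also over all genes), -0.33 with DESeq2 and no offset, -0.40 with the wider limit, -0.30 with background subtracted and no offset (0.44 with it), -4.65 with TMM over all genes, and -0.18 to 0.97 without 1 tumor. Scarb1 came to -3.84 with TMM over all genes and -0.21 with the wider limit. Against the TMM fit, Marco came to 2.93 and 2.10 and Cd36 to 0.32 and, with the wider limit, 0.0397. In APC-WT tumor 2 against 1, Scarb1 came to 0.0239 with background subtracted, to between -0.015 and 0.0242 without 1 replicate, and Cd68 to -0.0183 with the length offset. In APC-KO tumor 1 against APC-WT tumors 1 and 2, Scarb1 came to -0.0823 and -0.11 with background subtracted (-0.0825 and -0.11 over all genes), and in APC-KO tumor 2 against APC-WT tumor 1, Mrc1 to 0.0606 with the length offset.

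Libraries that share a replicate number deviated together in some cases and apart in others (correlation -0.535 to 0.8 over 36 comparisons), and in 10 of 72 cases a library correlated best with its own number in another tumor, so the numbers were not taken to pair the libraries. With the replicate number as a block, Scarb1 between APC-WT tumors came to 0.0001, and 2 members passed within each genotype and 2 were lower in all 4 pairs, as without the block. Among expressed genes 1280 were called between APC-KO tumors with the block and 1313 without it, and 1794 and 1848 between APC-WT tumors.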
